A study of Saccharomyces cerevisiae with 8 samples.

Results

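The large-subunit ribosomal protein genes RPL1 to RPL40 of budding yeast (Saccharomyces cerevisiae) were examined, without the RPL7, RPL11, RPL18, RPL27 and RPL31 pairs. They were the 60 genes, out of 7660 features of the count table, whose row carried 1 of 60 fixed systematic names, with intron rows set aside. The 60 genes encode 35 proteins, 25 from a pair of paralogous copies (A and B) and 10 from a single gene. RNA was counted in 8 libraries, in 4 groups of 2 that the labels call biological replicates. In the Nab2 anchor-away strain the nuclear poly(A) binding protein Nab2 carries an FRB tag, so that rapamycin ties it to the ribosomal protein Rpl13a, which carries an FKBP12 tag and leaves the nucleus with newly made ribosomal subunits. This strain (tor1-1, FPR1 disrupted with LEU2, RPL13A-2xFKBP12, NAB2-FRB) was sampled untreated, called 0 min here, and at 15 and 30 min of 1 µg/ml rapamycin. The control strain has the same tor1-1 allele, FPR1 disruption and RPL13A-2xFKBP12 but no NAB2-FRB, and was taken at 30 min of that dose. It is labelled MATa, and the anchor-away strain only MAT. The anchor is itself the product of one of the 60 genes, RPL13A, and is tagged in every library. No control was sampled at 0 or 15 min, so Nab2 anchoring, rapamycin and time cannot be told apart in the time course. Comparison with the control holds rapamycin and time equal, but sets 1 strain against another.

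The large ribosomal subunit holds the peptidyl transferase centre, where peptide bonds form, and the tunnel through which the nascent chain leaves. Its proteins are made in the cytoplasm, imported, placed on pre-ribosomal RNA in the nucleolus and exported within pre-60S particles. Their genes are among the most strongly transcribed in growing yeast, many through the activator Rap1, and a large part of all spliced yeast transcripts comes from them. Most exist as paralog pairs left by the ancient whole-genome duplication, and the copies encode the same or nearly the same protein.

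Libraries held 4832948 to 17023022 counts. In 3 of them, 15 min replicate 1, 30 min replicate 2 and control replicate 1, 24.4% to 28.2% of features had 0 counts, against 9.18% to 15.4% in the other 5. NAB2, which the anchoring does not delete, had 264, 211, 164, 174, 203, 228, 120 and 184 CPM in the 8 libraries and passed no test, and FPR1, disrupted in both strains, had 0 to 2.48 CPM. CPM express counts relative to a library total scaled by TMM, a method that sets the bulk of the features equal between libraries, so every change below is relative to that bulk. Values over all libraries are always given in the order 0 min replicates 1 and 2, 15 min replicates 1 and 2, 30 min replicates 1 and 2, and control replicates 1 and 2. Features were tested with edgeR's quasi-likelihood test in 1 main fit over 8 libraries and 6191 features. The limit was 0.05 on the p-value adjusted by Benjamini and Hochberg's method. All 60 genes entered the test. P-values measure the spread between these libraries, and reads common to both copies of a pair may have been dropped or split, since how they were counted is not given in the sources used here.

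Per kilobase of coding sequence, the mean level over the 8 libraries ran from 8.1 CPM for RPL22B to 10316 CPM for RPL33A, with a median of 2954. RPL22B, whose product in yeast restrains splicing of its own transcript together with Rpl22a, was followed from below by RPL15B at 94 CPM per kilobase and RPL8A at 167. RPL32 at 10197 and RPL10 at 7376 CPM per kilobase stood next to RPL33A at the top. Rpl10 joins the subunit late in the cytoplasm, beside the peptidyl transferase centre. RPL5 stood at 5542 and RPL3 at 5472 CPM per kilobase. Together the 60 genes took 9.74%, 9.39%, 9.75%, 9.54%, 7.13%, 9.09%, 10.9% and 9.19% of all counts in the 8 libraries. The share was lowest in 30 min replicate 1 and highest in control replicate 1, and the 4 libraries with anchored Nab2 (15 and 30 min) overlapped the other 4, with means of 8.88% and 9.82% (2-sided exact permutation test, p = 0.343, adjusted p = 0.514 over 3 library values). The smallest p this test can give is 2 in 70 splits.

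**Figure D1:**
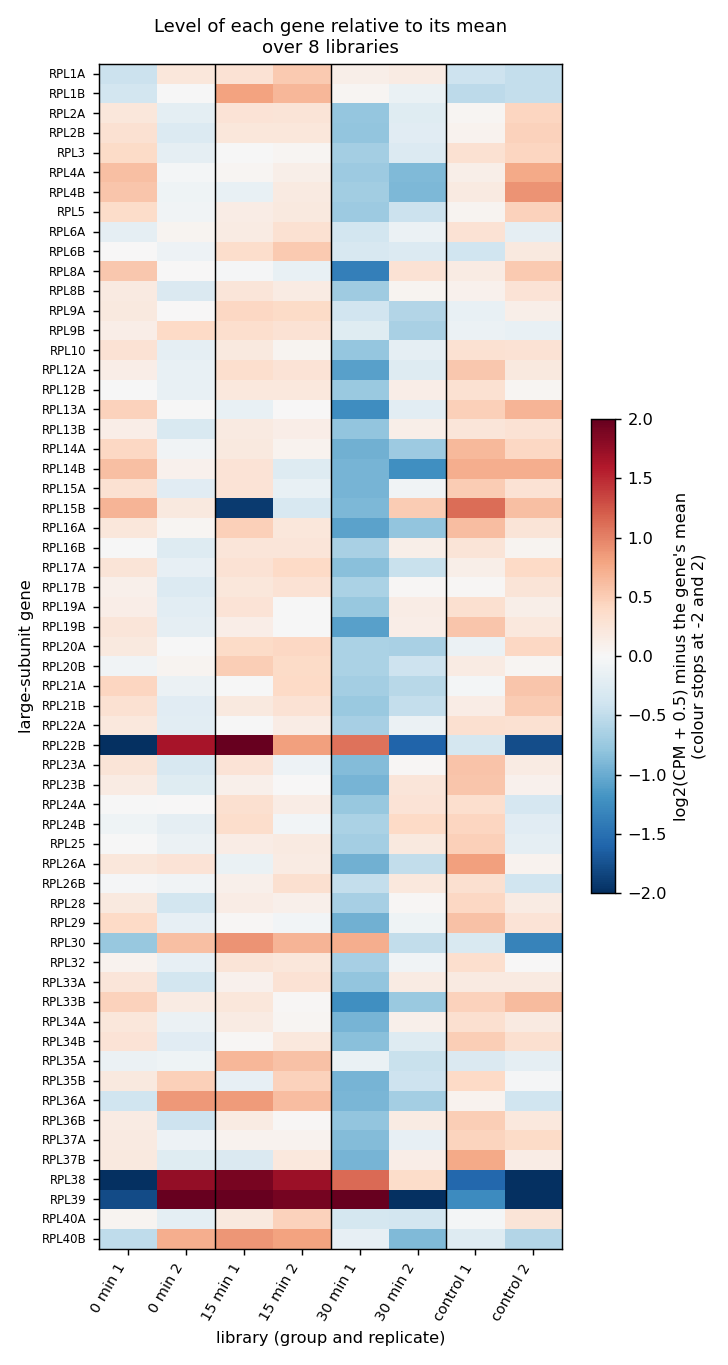
Each row is 1 of the 60 genes and each column 1 library, with colour giving log2(CPM + 0.5) minus the gene's mean over the 8 libraries. The column of 30 min replicate 1 is blue for most genes and is the lowest library for 43 of the 60, and the rows of RPL22B, RPL38 and RPL39 change within groups.

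The main shift of the group was a lower level at 30 min of anchoring. Against the control at 30 min, 54 of the 60 genes had a negative log2 fold change, 90% against 47.8% of all tested features, and the median was -0.64 against 0.06 over all features. Of the 60 genes, 9 fell and none rose (RPL4A, RPL4B, RPL13A, RPL14A, RPL14B, RPL16A, RPL21B, RPL26A and RPL33B), which is 15% of them, while 6.07% of all tested features passed in this comparison. Both 30 min libraries were below both control libraries for 40 of the 60 genes, against 24.2% of all features. Against 0 min, 56 of 60 were negative with a median of -0.50, and both 30 min libraries were below both 0 min libraries for 27 genes, against 27.7% of all features. The 2 comparisons share the 30 min libraries. Without 0 min replicate 1 the median against 0 min was -0.20, without 30 min replicate 1 it was -0.26, and without 30 min replicate 2 it was -0.81, where the median against the control was -1.01. The 30 min replicates were unequal: replicate 1 was the lowest of the 8 libraries for 43 genes and replicate 2 for 10, with median levels of 802 and 1063 CPM over the 60 genes, against 1059 to 1479 CPM in the other 6 libraries. Scaling by total counts moved the median against the control to -0.32 for the 60 genes and to 0.42 for all features, and scaling by small nucleolar RNAs moved them to -1.08 and -0.34, so the genes lay below the bulk of features under each.

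**Figure D2:**
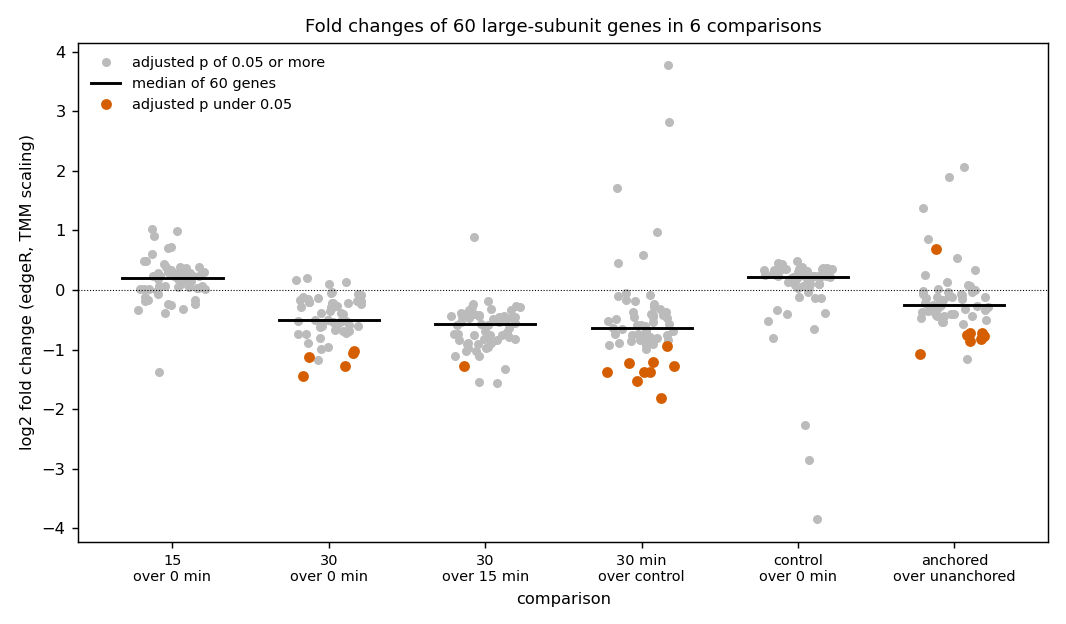
The vertical axis gives the log2 fold change of each of the 60 genes (points) in the 6 comparisons on the horizontal axis, with black lines at the medians and orange points for genes with an adjusted p under 0.05. The medians lie at 0.21, -0.50, -0.58, -0.64, 0.22 and -0.25 from left to right. The points above 2 or below -2 are RPL38, RPL39 and RPL22B, which passed in no comparison in the main edgeR fit.

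The genes of Rpl4, a protein with a long loop that lines the exit tunnel, fell in both copies. RPL4A (YBR031W, chromosome II, 300166 to 301254, build R64) had 1524, 984, 1038, 1089, 611, 545, 1091 and 1704 CPM. RPL4B (YDR012W, chromosome IV, 471853 to 472941) had 970, 621, 595, 744, 404, 354, 749 and 1230 CPM. For both genes the 30 min libraries were the 2 lowest of the 8. Against the control the log2 fold change was -1.27 ± 0.28 (SE) for RPL4A (edgeR adjusted p = 0.0111) and -1.38 ± 0.29 for RPL4B (edgeR adjusted p = 0.00877). The control replicates were far apart, and without control replicate 2 the values were -0.85 (edgeR adjusted p = 0.127) and -0.92 (edgeR adjusted p = 0.107). The coding sequences of the copies are 98.9% identical, with a shared run of 422 bases, so the counts cannot be fully assigned to 1 copy. With the copies summed, the pair fell by 1.33 ± 0.29 on the log2 scale against the control (edgeR adjusted p = 0.0097) and had a log2 fold change of -1.10 ± 0.29 against 0 min (edgeR adjusted p = 0.0457).

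Both copies of RPL14, the genes of the protein eL14, also fell. RPL14A (YKL006W, chromosome XI, 431906 to 432720) had 583, 417, 502, 461, 225, 265, 689 and 587 CPM. RPL14B (YHL001W, chromosome VIII, 104277 to 105091) had 223, 155, 177, 123, 76.7, 62.3, 242 and 244 CPM, from 322 to 3523 counts per library. The 30 min libraries of each gene were below all 6 others, and the 15 min libraries overlapped those of the 0 min group. Against the control RPL14B fell by 1.81 ± 0.30 on the log2 scale (edgeR adjusted p = 0.00179) and RPL14A by 1.38 ± 0.26 (edgeR adjusted p = 0.00394). Both passed whichever of the 8 libraries was left out. With the copies summed, the pair fell by 1.49 ± 0.25 (edgeR adjusted p = 0.00199). The RPL4 and RPL14 pairs were the only 2 of 25 that passed against the control when the copies were summed.

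In 5 other pairs 1 copy passed against the control. RPL33B (YOR234C, chromosome XV, 778555 to 779405, minus strand) had 834, 682, 711, 619, 259, 363, 842 and 949 CPM, and its 30 min libraries were the lowest 2. It fell by 1.52 ± 0.26 on the log2 scale (edgeR adjusted p = 0.00206) and passed whichever library was left out. Its partner RPL33A (YPL143W, chromosome XVI, 282122 to 282970) had 3837, 2510, 3472, 3997, 1893, 3643, 3686 and 3702 CPM, with 1 low library at 30 min, and a log2 change of -0.42 ± 0.31 (edgeR adjusted p = 0.466). RPL16A (YIL133C, chromosome IX, 98527 to 99416, minus strand), 1 of the genes of the protein uL13, had 1101, 968, 1322, 1111, 452, 550, 1452 and 1132 CPM. Its 30 min libraries were below all others, and it fell by 1.37 ± 0.25 (edgeR adjusted p = 0.00404), also with any library left out. RPL16B had 3802, 3196, 4542, 4556, 2452, 4177, 4576 and 3993 CPM and a log2 change of -0.37 ± 0.28 (edgeR adjusted p = 0.479).

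RPL26A (YLR344W, chromosome XII, 819312 to 820142), which encodes a protein near the mouth of the exit tunnel, had 635, 657, 493, 609, 279, 386, 961 and 570 CPM. Both 30 min libraries were lowest, while the control libraries differed from each other, and the log2 fold change against them was -1.20 ± 0.28 (edgeR adjusted p = 0.0155). It did not pass without 30 min replicate 1 (-0.99, edgeR adjusted p = 0.0724) or without control replicate 1 (-0.79, edgeR adjusted p = 0.183). RPL13A (YDL082W, chromosome IV, 308424 to 309388), the anchor gene, had 381, 275, 250, 279, 117, 239, 385 and 445 CPM, with 30 min replicate 1 far below the other 7. Its log2 fold change was -1.23 ± 0.31 (edgeR adjusted p = 0.0234), and it did not pass without 30 min replicate 1 (-0.80, edgeR adjusted p = 0.112), control replicate 1 (-1.34, edgeR adjusted p = 0.0527) or control replicate 2 (-1.06, edgeR adjusted p = 0.108). The 2xFKBP12 cassette at this locus is present in both strains. RPL21B (YPL079W, chromosome XVI, 406636 to 407539) had 1222, 844, 1132, 1200, 589, 712, 1095 and 1399 CPM, the 30 min libraries being lowest, and a log2 change of -0.94 ± 0.26 (edgeR adjusted p = 0.0405). It did not pass without 15 min replicate 1 (-0.87, edgeR adjusted p = 0.1), 15 min replicate 2 (-0.87, edgeR adjusted p = 0.104), 30 min replicate 1 (-0.81, edgeR adjusted p = 0.114) or control replicate 2 (-0.69, edgeR adjusted p = 0.208), and RPL21A had a similar -0.91 ± 0.28 (edgeR adjusted p = 0.0679). The number of genes that passed against the control was 19 or 21 when 0 min replicate 1 or 2 was left out, 23 without 30 min replicate 2 and 5 without control replicate 2, and 8 (15 min replicate 1 or 2), 6 (30 min replicate 1) and 9 (control replicate 1) with the others left out.

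**Figure D3:**
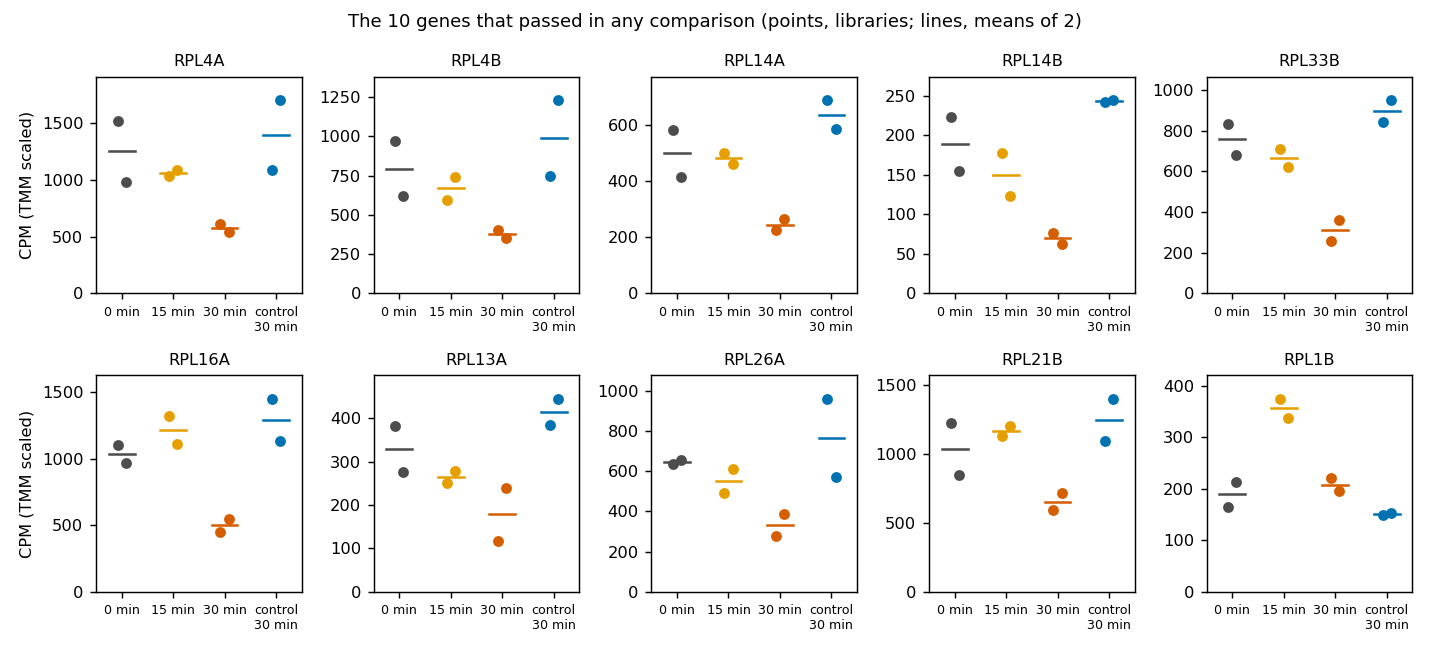
Each panel shows the CPM of 1 gene on a vertical axis from 0, by group, with points for the 2 libraries and lines for their means. In every panel but that of RPL1B the 30 min libraries are the 2 lowest, as for RPL14B at 76.7 and 62.3 CPM.

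The time course gave fewer calls. At 15 min against 0 min none of the 60 genes passed in the main edgeR fit, where 0.162% of all tested features did. In that fit 3 of the genes had an unadjusted p under 0.05. In DESeq2 2 rose (RPL1B and RPL35A), and in limma-voom 1 rose (RPL38), without a share over all features for either tool. The median of the genes was 0.21 and 47 of 60 were positive, with medians of 0.32 and 0.00 when 0 min replicate 1 or 2 was left out. With library scaling by small nucleolar RNAs the median over all features moved to -0.92 and that of the genes to -0.62, so the genes stood above the bulk of features under either scaling while the sign of their own median depended on it. Without 0 min replicate 2, RPL30, RPL38 and RPL40B rose.

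At 30 min against 0 min, 5 genes fell (RPL4A, RPL14A, RPL14B, RPL16A and RPL33B) and none rose, 8.33% of the 60 against 2.76% of all tested features. The log2 fold changes were -1.44 ± 0.29 for RPL14B (edgeR adjusted p = 0.0121) and -1.28 ± 0.26 for RPL33B (edgeR adjusted p = 0.0116). For RPL4A, RPL16A and RPL14A they were -1.12 ± 0.28, -1.05 ± 0.25 and -1.03 ± 0.25 (edgeR adjusted p = 0.0402, 0.0311 and 0.0352). The 0 min replicates of RPL4A, RPL14A and RPL14B differed, replicate 1 being higher, and without it RPL36A alone passed. Without it the log2 fold change of RPL33B was -1.05 (edgeR adjusted p = 0.0937) and that of RPL14B -1.07 (edgeR adjusted p = 0.279). Without 0 min replicate 2 the median log2 fold change of the 60 genes was -0.56. RPL14B and RPL33B alone passed without either 15 min library, and they and RPL4A without 30 min replicate 1. With each library left out in turn, RPL33B passed in 7 of 8 fits, RPL14B in 6, RPL4A and RPL16A in 4 and RPL14A in 2.

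Between 15 and 30 min RPL16A alone passed, at 1322 and 1111 CPM and then 452 and 550 CPM, which is -1.28 ± 0.25 on the log2 scale (edgeR adjusted p = 0.0358), against 0.452% of all tested features. It did not pass without 15 min replicate 1 (-1.10), 15 min replicate 2 (-1.34) or 30 min replicate 2 (-1.44). The number of genes that passed changed with the library left out, and the share over all features in those fits is not given here. The whole group moved the same way: 59 of the 60 genes were negative and the median was -0.58, against 51.8% negative and a median of -0.04 over all features. The median of the genes was -0.36 without 30 min replicate 1 and -0.93 without 30 min replicate 2. RPL36A went from 308 and 262 to 90.4 and 106 CPM (-1.54 ± 0.35, edgeR adjusted p = 0.066) and did not pass. RPL15B was the exception with a positive value, 0.89 ± 0.54 (edgeR adjusted p = 0.619), after 12.6 and 39 CPM at 15 min and 26 and 69.8 CPM at 30 min.

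The control at 30 min and the untreated anchor-away strain differ in both strain and rapamycin. None of the 60 genes passed between them in the main edgeR fit, DESeq2 or limma-voom. In the main fit none had an unadjusted p under 0.05, while 0.0808% of all tested features passed. The median was 0.22, with 47 of 60 positive, and it was -0.01 under scaling by small nucleolar RNAs, where the median of all features was -0.36. It was 0.43 or 0.09 when 0 min replicate 1 or 2 was left out. Without 0 min replicate 1, RPL38 fell.

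Averaged over both times, the anchored libraries were compared with the 4 others. In that comparison 7 genes fell (RPL4A, RPL4B, RPL13A, RPL14A, RPL14B, RPL26A and RPL33B) and RPL1B rose, 13.3% of the 60 against 6.95% of all tested features. RPL14B fell by 1.07 ± 0.21 on the log2 scale (edgeR adjusted p = 0.00419), with any library left out, and RPL33B by 0.86 ± 0.18 (edgeR adjusted p = 0.00766). None of the 60 genes had all 4 anchored libraries on one side of the 4 others. Of 56 tested small-subunit genes 3 did, all lower. The share over all features was not taken, so whether none of 60 is unusual cannot be read. The median over the 60 genes was -0.25, and it was -0.10 without 0 min replicate 1, -0.14 without 30 min replicate 1 and -0.43 without 30 min replicate 2. RPL1B (YGL135W, chromosome VII, 254641 to 255294) encodes a protein of the mobile L1 stalk, which guides the leaving tRNA. It had 165, 213, 375, 338, 220, 195, 149 and 153 CPM, high at 15 min and overlapping at 30 min, and a log2 change of 0.69 ± 0.18 (edgeR adjusted p = 0.0269). Its coding sequence is 99.4% identical to that of RPL1A, and the summed pair rose by 0.61 ± 0.17 on the log2 scale (edgeR adjusted p = 0.038). Under scaling by small nucleolar RNAs the value of RPL1B was 0.05. How many genes passed changed with the library left out, and the share over all features in those fits is not given here. RPL1B did not pass without 0 min replicate 1, either 15 min library or control replicate 1 (0.65 to 0.77, edgeR adjusted p = 0.0542 to 0.117), and RPL33B not without 15 min replicate 2 (-0.77, edgeR adjusted p = 0.067). RPL4A, RPL4B, RPL14A and RPL26A passed in 4 of the 8 such fits and RPL13A in 2.

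The ratio of paralog copies within a library does not depend on the scaling. It was taken as log2 of copy A over copy B. The anchored and other libraries did not overlap in 5 of the 25 pairs (RPL13, RPL19, RPL26, RPL33 and RPL35), 20%. In 4 of the 5 the less abundant copy was the one relatively lower. Across the 25 pairs there was no such tilt. The less abundant copy was relatively lower at 30 min than in the control in 12 pairs, with a median of 0.02. In 12 pairs the ratio stayed within 0.2 of the control. By the same rule 34.8% of 23 small-subunit pairs did not overlap, but the shares are not like for like. The RPL7, RPL11, RPL18, RPL27 and RPL31 pairs were set aside with earlier results of these data known, and 5 of their 10 genes fell against the control. No small-subunit pair was set aside in that way, so the shares and the lack of tilt hold only for the pairs kept. Of the 10 genes that passed in any comparison, 7 were the less abundant and 3 the more abundant copy of their pair, and none was a single gene.

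The RPL33 ratio was 2.20, 1.88, 2.29, 2.69, 2.87, 3.32, 2.13 and 1.96. Group means went from 2.04 through 2.49 to 3.10 over the time course, with 2.05 in the control strain, 1.05 below the 30 min group. For RPL26 it was -1.48, -1.39, -1.97, -1.89, -2.21, -2.43, -1.23 and -1.26, lower in every anchored library. RPL13 had -2.82, -2.86, -3.48, -3.27, -3.61, -3.48, -2.91 and -2.75, already low at 15 min. RPL16 had -1.79, -1.72, -1.78, -2.04, -2.44, -2.92, -1.66 and -1.82, with only the 30 min libraries apart from all others. RPL35, whose product sits at the exit of the tunnel, had 1.29, 1.04, 2.42, 1.72, 2.40, 1.55, 0.91 and 1.46, and the copies share a run of 302 identical bases. The RPL19 ratio differed least of the 5, by 0.24. In contrast RPL2, a pair of the peptidyl transferase region, stayed between -0.55 and -0.40 in all 8 libraries, and RPL4 between 0.47 and 0.80. Their copies are 96.3% (RPL2) and 98.9% (RPL4) identical in coding sequence, with shared runs of 188 and 422 bases. Shared reads, if split between the copies, could hold such ratios level, and this was not tested.

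**Figure D4:**
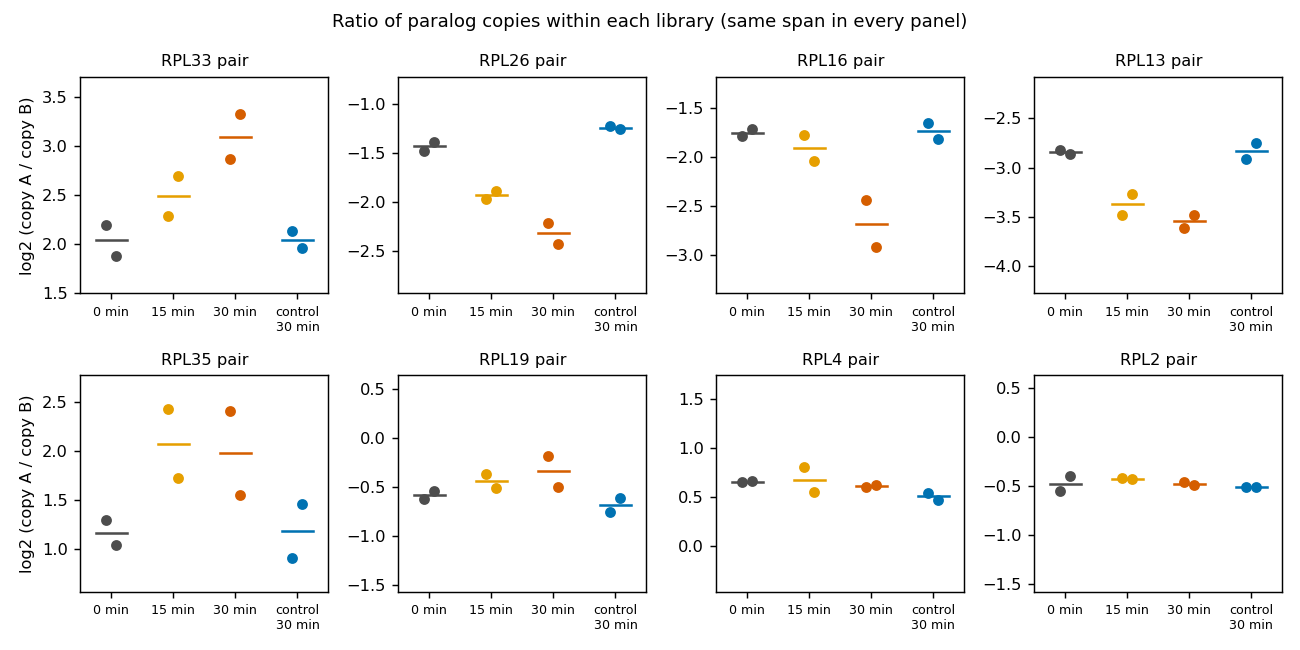
Each panel plots log2 of copy A over copy B for 1 pair by group, with points for libraries, lines for means of 2 and the same span of values in every panel. The RPL33, RPL26, RPL16 and RPL13 ratios move away from the 0 min and control levels at 30 min, while RPL4 and RPL2 stay level.

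In the RPL33, RPL26 and RPL13 pairs 1 copy passed against the control and the copy ratio separated the anchored from the other libraries. The promoters of RPL33 and RPL26 are shown as examples. Each run covers 250 bases, from 400 to 151 bases before the start codon, read 5′ to 3′ on the gene's strand from the RefSeq genome of build R64, and capitals mark matches to ACCCANNCA, a core of the Rap1 site, on either strand.
RPL33A, chrXVI:281722-281971, plus strand: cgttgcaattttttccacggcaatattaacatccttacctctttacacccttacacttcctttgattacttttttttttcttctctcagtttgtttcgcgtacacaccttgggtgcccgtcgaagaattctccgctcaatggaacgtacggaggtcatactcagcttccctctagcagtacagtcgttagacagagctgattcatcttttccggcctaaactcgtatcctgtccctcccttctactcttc
RPL33B, chrXV:779556-779805, minus strand: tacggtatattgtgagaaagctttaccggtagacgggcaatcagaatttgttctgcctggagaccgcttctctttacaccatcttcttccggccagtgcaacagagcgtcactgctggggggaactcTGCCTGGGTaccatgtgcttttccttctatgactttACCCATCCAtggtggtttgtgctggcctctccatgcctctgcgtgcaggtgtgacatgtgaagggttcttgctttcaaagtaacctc
RPL26A, chrXII:818912-819161, plus strand: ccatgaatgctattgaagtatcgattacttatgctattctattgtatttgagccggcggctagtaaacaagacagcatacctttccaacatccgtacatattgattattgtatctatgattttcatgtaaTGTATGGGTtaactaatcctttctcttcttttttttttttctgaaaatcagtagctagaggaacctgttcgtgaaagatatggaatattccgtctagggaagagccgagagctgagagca
RPL26B, chrVII:555412-555661, plus strand: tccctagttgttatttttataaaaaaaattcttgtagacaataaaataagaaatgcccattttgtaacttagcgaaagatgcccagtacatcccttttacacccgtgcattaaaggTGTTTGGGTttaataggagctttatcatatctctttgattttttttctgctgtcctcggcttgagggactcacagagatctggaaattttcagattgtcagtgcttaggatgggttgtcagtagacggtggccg
RPL33A held no match and RPL33B held 2, whereas both RPL26 copies held 1. Only this string was searched, so a window without a match can still hold another form of the Rap1 site. In the RPL13 pair, which is not shown, RPL13A held 2 and RPL13B held 1. The motif was found in the same window of 19 of the 60 genes (31.7%), in 26.8% of small-subunit genes and in 3.42% of all 6026 nuclear protein-coding genes. It was present in 4 of the 10 genes that passed in any comparison and in 15 of the other 50. Neither copy of RPL14, RPL4 or RPL16 held it in this window.

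None of the 10 genes without a paralog passed in the main edgeR fit. Against the control 4 of them had an unadjusted p under 0.05 in edgeR, 2 passed in DESeq2 (RPL3 and RPL5, lower) and 5 in limma-voom (RPL3, RPL5, RPL10 and RPL29, lower, and RPL38, higher). The shares of all features that passed in DESeq2 and limma-voom are not given here. Whether these counts exceed the background of those tools cannot be read. RPL3, whose protein reaches into the peptidyl transferase centre, had 8077, 5455, 6160, 6378, 3851, 5093, 7608 and 8335 CPM, with both 30 min libraries lowest. Its log2 fold change against the control was -0.83 ± 0.28 (edgeR adjusted p = 0.0862). RPL10 had 5852, 4226, 5472, 4974, 2797, 4219, 5885 and 5873 CPM and -0.75 ± 0.28 (edgeR adjusted p = 0.127). RPL5, which carries the 5S ribosomal RNA, had 6181, 4585, 5338, 5496, 2887, 3545, 5010 and 6597 CPM and -0.85 ± 0.27 (edgeR adjusted p = 0.0744). Of the other single genes, RPL25, RPL28, RPL29 and RPL32 had -0.36, -0.58, -0.90 and -0.52 against the control, and RPL30, RPL38 and RPL39 had positive values.

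The remaining genes at the ends of the ranked fold changes passed in none of the 6 comparisons in the main edgeR fit. Without 30 min replicate 2 RPL8A passed at 30 over 0 min, and without 15 min replicate 2 RPL15B passed for anchored against other libraries. RPL15B had 78.3, 56.1, 12.6, 39, 26, 69.8, 106 and 74.5 CPM, and its 15 min libraries were below both 0 min libraries (-1.38 ± 0.55, edgeR adjusted p = 0.561). RPL8A, the scarce copy of its pair, had 176, 121, 119, 109, 46.6, 148, 136 and 174 CPM, with 30 min replicate 1 alone far below the rest. RPL1A had 157, 246, 257, 305, 229, 236, 158 and 152 CPM, and its control libraries were low, as was 0 min replicate 1. RPL24B, with 1188, 1105, 1601, 1211, 805, 1654, 1698 and 1067 CPM, had its lowest and 1 of its highest libraries at 30 min. RPL36B (1660, 1120, 1660, 1515, 859, 1662, 2100 and 1728 CPM) and RPL37B (1016, 755, 729, 1026, 469, 980, 1505 and 985 CPM) likewise had 1 low library at 30 min. The pair whose copies differed least in fold change was RPL4 at 15 over 0 min, RPL15 at 30 over 0 min, RPL21 at 30 over 15 min, RPL24 against the control, RPL13 in control over 0 min and RPL37 for anchored libraries. The pairs that differed most in the 6 comparisons were RPL15, RPL22, RPL33, RPL35 and RPL36.

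RPL38, RPL39 and RPL22B differed most between replicates of a group. Their within-group SD on the log2 scale was 1.63, 3.08 and 1.77, while no other of the 60 genes exceeded 0.79, and the median was 0.33 for the genes and 0.56 for all tested features. RPL38 had 41.2, 881, 973, 854, 570, 334, 87.1 and 41.1 CPM. RPL39, a very small protein lining the exit tunnel, had 4.87, 134, 111, 69.7, 130, 0.387, 7.32 and 2.35 CPM. RPL38 and RPL39 were low together in 0 min replicate 1 and both control libraries, and RPL39 was also low in 30 min replicate 2. Their log2 fold changes of 2.82 ± 1.47 and 3.77 ± 2.65 against the control did not pass (edgeR adjusted p = 0.374 and 0.502). RPL22B rested on 0, 101, 79, 22, 46, 1, 10 and 1 counts.

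A milder form of this pattern was seen in RPL30 and RPL40B. RPL30, whose protein in yeast binds its own transcript and blocks its splicing, had 256, 659, 808, 693, 719, 309, 350 and 171 CPM. RPL40B, which encodes a fusion of ubiquitin to a ribosomal protein, had 430, 1013, 1124, 1066, 543, 330, 513 and 408 CPM. In both, 0 min replicate 1 stood below 0 min replicate 2 and near the control libraries. This also held for RPL36A, at 130, 311, 308, 262, 90.4, 106, 179 and 129 CPM, but there both 30 min libraries were lowest. RPL39 and RPL38 have coding sequences of 156 and 237 bases, the shortest of the 60 with RPL29 at 180 bases, and RPL29 did not share the pattern, at 1068, 724, 824, 781, 419, 763, 1216 and 981 CPM. The part of transcript length or library preparation in these values was not tested.

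The table also counts introns, which the choice of genes left out. There were 44 intron features in the 60 genes, 4 of them within the 5′ untranslated region, with 19309 counts in all. The 4 highest held 74.5% of these, and 4 introns (RPL6A, RPL22B, RPL39 and RPL40B) had no count in any library. Summed over the genes, log2 of intron over transcript counts was -8.18, -7.89, -8.33, -8.04, -7.49, -8.53, -8.11 and -8.07. The 30 min replicates were the highest and the lowest library, and the mean difference of the anchored from the other libraries was -0.03 (2-sided exact permutation test, p = 0.943, also after adjustment over 3 library values). Its sign turned without 0 min replicate 2 (0.02), 15 min replicate 1 (0.05) or 30 min replicate 2 (0.11), and it was 0.31 without the 3 genes of the highest intron counts.

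Of the 14 introns with at least 100 counts, RPL14A and RPL17A separated the anchored libraries from the others, in opposite directions, against 4% of 25 introns of other genes. For RPL14A there were 8.76, 13.5, 17.3, 15.6, 18, 14.9, 10 and 10.4 intron counts per 100 transcript counts, and all 4 anchored libraries were highest. RPL14A transcript counts themselves fell at 30 min, and the ratio was as high at 15 min. RPL17A, a gene of a tunnel protein, had 2.92, 2.17, 1.81, 1.59, 2.02, 1.49, 3.13 and 2.45, with all 4 anchored libraries lowest. The partner copies overlapped, RPL14B with 10.4, 17.3, 6.74, 19.1, 25.7, 6.52, 6.67 and 13.9, and RPL17B with 3.05, 2.76, 1.68, 2.56, 2.45, 3.06, 4.6 and 2.75. These separations are descriptions of 8 libraries and carry no test.

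The introns of both pairs are shown by their first 20 bases and by the bases around the branch point motif, with capitals for the first 6 bases and for TACTAAC, read on the gene's strand from the RefSeq genome of build R64.
RPL14A, first bases of the intron: GTATGTtaaatccggaaaac
RPL14A, around the branch point motif: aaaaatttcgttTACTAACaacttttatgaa
RPL14B, first bases of the intron: GTATGTtgaacctaaaaccc
RPL14B, around the branch point motif: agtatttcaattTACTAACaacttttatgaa
RPL17A, first bases of the intron: GTATGTcaagaatattatat
RPL17A, around the branch point motif: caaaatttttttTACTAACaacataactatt
RPL17B, first bases of the intron: GTATGTttaaaatgaaaata
RPL17B, around the branch point motif: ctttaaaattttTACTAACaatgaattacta
All 4 begin with GTATGT and hold TACTAAC. The RPL14 introns are both 398 bases long and match at all 12 bases after the motif, whereas the RPL17 introns are 306 and 317 bases long and match at 4 of these 12. Among coding introns of the 60 genes 33 of 40 (82.5%) began with GTATGT and 39 of 40 (97.5%) held TACTAAC, against 65.7% and 74.4% of 312 coding introns of all nuclear genes.

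**Figure D5:**
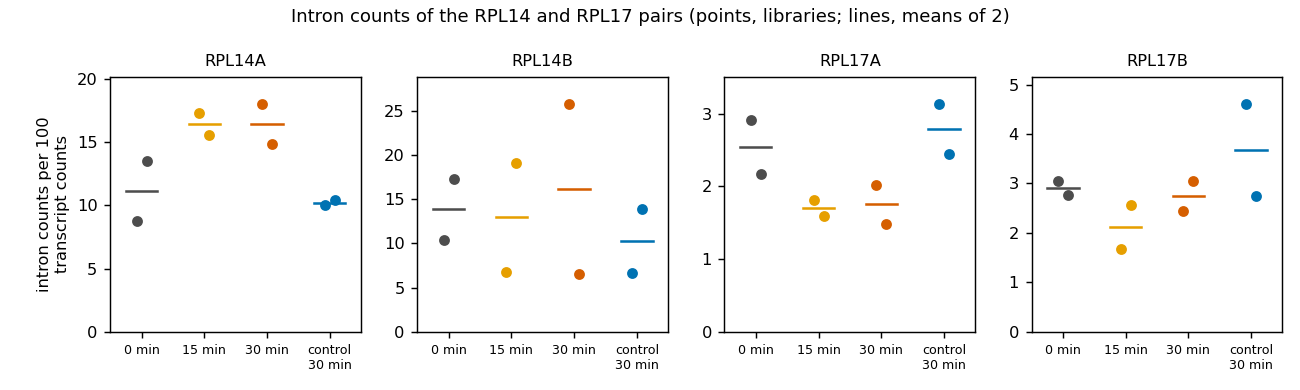
Each panel gives intron counts per 100 transcript counts of 1 gene on a vertical axis from 0, by group, with points for libraries and lines for means of 2. The 4 anchored RPL14A points, 14.9 to 18, lie above the 4 others, the 4 anchored RPL17A points, 1.49 to 2.02, lie below, and RPL14B and RPL17B overlap.

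Small-subunit genes moved alongside. At 30 min against the control 8 of 56 tested small-subunit genes fell and none rose, 14.3% against 6.07% of all tested features. Their median was -0.59 beside -0.64 for the 60 large-subunit genes. Log2 of summed large-subunit over summed small-subunit counts was 0.21, 0.09, 0.08, 0.05, 0.01, 0.21, 0.25 and 0.21, so the groups overlapped (2-sided exact permutation test, p = 0.0857, adjusted p = 0.257 over 3 library values). The 5 stalk protein genes (RPP0, RPP1A, RPP1B, RPP2A and RPP2B), which recruit translation factors, passed in no comparison of the main edgeR fit. Their log2 fold changes were -0.71 to -0.40 against the control. There 3 of the 5 had an unadjusted p under 0.05 in edgeR, none passed in DESeq2 and 1 passed in limma-voom, where the share over all features is not given here.

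Among 7 genes for chaperones of large-subunit proteins or for adapters of import and pre-60S export, 2 fell against the control and none rose. That is 28.6%, against 6.07% of all tested features. RRB1, whose product accompanies new Rpl3, had 189, 222, 205, 184, 84.8, 67.5, 165 and 155 CPM and fell by 1.07 on the log2 scale against the control (edgeR adjusted p = 0.0233) and had -1.35 between 15 and 30 min (edgeR adjusted p = 0.0371). SQT1, whose product accompanies new Rpl10, had 217, 154, 172, 128, 79.9, 73.5, 175 and 212 CPM and fell by 1.34 against the control (edgeR adjusted p = 0.00989). For RRB1 and SQT1 the 30 min libraries were the lowest 2. The 30 min libraries were also the lowest 2 for RPL3 and RPL10, which did not pass in the main edgeR fit. ACL4, whose product accompanies Rpl4, had -0.25 (edgeR adjusted p = 0.82). Of 11 regulators of ribosomal protein genes 1 fell against the control and none rose, 9.09% beside the 6.07% of all tested features. That gene was HMO1, a DNA-binding protein of many ribosomal protein promoters, with 536, 424, 463, 398, 217, 289, 713 and 594 CPM and a log2 change of -1.37 (edgeR adjusted p = 0.00421). RAP1 itself was level, at 185, 171, 185, 206, 186, 218, 227 and 200 CPM (-0.08, edgeR adjusted p = 0.9).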

How the data were processed

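The deposited table holds whole-number read counts per annotated feature, which the authors left without normalisation. Tools in the submitters' processing notes are HTSeq 0.5.3, GSNAP 2012-01-11 and bedtools 2.17.0, with build R64. The counting rule is not given in the sources used here. Per the labels, ribosomal RNA was depleted, strand-specific libraries were made and total RNA of fission yeast was spiked in, but the table as analysed here held 0 spike-in features, so output per cell cannot be read. Libraries were grouped by their descriptions, and 30 min replicate 2 is numbered 3 in its title.

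From 7711 features, 29 exact repeats and 22 shadow entries were removed. Of the rows of the 60 genes, 2 also list other names (RPL21A and RPL29). The tests ran in edgeR 4.0.16 under R 4.3.3 (TMM factors, filterByExpr, glmQLFit with robust = TRUE). The code was checked on simulated counts whose spread between replicates (dispersion) was set below the common 0.373 of the fit. That check does not show how the tests perform on these libraries. The fit left 4 residual degrees of freedom. DESeq2 1.42.0, limma-voom (limma 3.58.1), other scalings and filters, summed pairs, a replicate block and each library left out were alternatives. Single library values were compared by 2-sided exact permutation over 70 splits. Pair ratios add 0.5 to each count. Same-numbered libraries did not deviate together (correlations -0.263 to 0.11), and the main fit left replicate numbers out. These correlations cannot show that the numbers carry no pairing.

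The genes and gene lists were chosen with earlier results of these data known. Genes named with values were RPL13A, every gene that passed, the 3 largest and 3 smallest fold changes per comparison, the 3 highest and lowest levels, and the pairs whose copies differed most and least. RPL16B, RPL17A, RPL17B, RPL21A, RPL29, RPL32 and the partner copies were added after their values were seen. Depth limits RPL22B most. Coordinates and sequences come from RefSeq's R64 genome.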

Additional observations from a re-analysis of the deposited data

Results flagged for a closer look

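RPL16A differed in its response between the times of anchoring. Its log2 fold change over 0 min was 0.23 at 15 min and -1.05 at 30 min, and the test of that difference, 30 against 15 min, gave -1.28 ± 0.25 (edgeR adjusted p = 0.0358), both 30 min libraries being below both 15 min libraries. Both effects share the 0 min libraries. RPL16A did not pass in this test with DESeq2's size factors (-1.23), with scaling by total counts (-0.94) or with a filter at a mean of at least 50 counts (-1.24). A fall between the times was not particular to RPL16A, since 59 of the 60 genes were negative, with a median of -0.58.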

How the results depend on the processing

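Counts of genes that passed moved with scaling, tool and filter, while none of the 23 calls named in the 6 comparisons changed sign in 17 alternatives. Scaling by small nucleolar RNAs gave 26 genes that fell at 15 over 0 min, 47 at 30 over 0 min, 3 at 30 over 15 min, 43 against the control and 48 for anchored against other libraries, with medians of -0.62, -1.18, -1.08 (control) and -0.86, and -0.01 for control over 0 min. Scaling by total counts gave medians of -0.25 at 30 over 15 min and -0.32 against the control, and 0 genes at 30 over 15 min. DESeq2's size factors in edgeR gave 2 genes at 30 over 0 min, 0 at 30 over 15 min and 5 for anchored libraries. There 2.07%, 0.129% and 6.15% of all tested features passed. The DESeq2 Wald test gave 2, 15 and 18 genes at 15 over 0 min, 30 over 15 min and against the control. With limma-voom there were 1, 9, 8, 26 and 14 genes at 15 over 0 min, 30 over 0 min, 30 over 15 min, against the control (1 of the 26 rose) and for anchored libraries (3 of the 14 rose). Without a filter on low counts these were 1, 8, 8, 18 (3 rose) and 13 (5 rose), with 2 for control over 0 min, and with a mean of at least 50 counts 2 at 30 over 0 min, 0 at 30 over 15 min and 4 for anchored libraries. Summed pairs gave 2 at 30 over 0 min, 0 at 30 over 15 min, 2 against the control and 3 for anchored libraries. Without the 3 libraries in which over 20% of features had 0 counts, 0 genes passed at 30 over 15 min, 4 against the control and 5 for anchored libraries. The numbers that passed with each library left out in turn ranged from 0 to 3 at 15 over 0 min, 1 to 9 at 30 over 0 min, 0 to 9 at 30 over 15 min, 5 to 23 against the control, 0 to 1 for control over 0 min and 2 to 15 for anchored libraries.

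The intron to transcript difference ranged from -0.23 to 0.11 with 1 library left out, and was 0.31 without the 3 genes of most intron counts and 0.29 without the 3 libraries of many 0 counts. A replicate block gave 0, 3, 2, 8, 0 and 9 genes in the 6 comparisons. RPL14B and RPL33B passed against the control in all 17 alternatives that keep the copies apart. The causes of these changes were not tested. With 2 libraries per group, small shifts of single genes cannot be resolved.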
